A study of Homo sapiens with 3 samples.

Results

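The nuclear-encoded subunits of the mitochondrial respiratory chain and ATP synthase were examined in HCT116, a line of human colorectal carcinoma cells. Members were chosen by gene name on the arrays, as the names that begin with NDUF followed by A, B, C, S or V, the 4 SDH genes, and the UQCR, COX5 to COX8 and ATP5 names of the numbered subunits. This gave 81 genes of 41810 gene names with a probe. By the start of the name, 38 were placed in complex I, 4 in complex II, 9 in complex III, 14 in complex IV and 16 in complex V. NDUFA4, which later work places with complex IV, and NDUFA4L2 (COXFA4L2 in RefSeq) are thus counted under complex I throughout. The rule uses no measured value. The name rule takes in UQCRBP1, which RefSeq lists as a transcribed pseudogene, and leaves out COX4I1 and CYC1, which are given apart as other subunits.

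The study asked which genes depend on PRMT1, the enzyme that places asymmetric dimethyl marks on arginine 3 of histone H4. There were 3 groups with 1 array each: PRMT1-NC (a negative control, NC), PRMT1-KD1 and PRMT1-KD2 (knockdowns, KD1 and KD2, made with siRNA per the labels). All 3 were cultures of the same cell line transfected by lipofection, and the labels do not say which of the listed siRNA sequences KD1 and KD2 received. The study's text speaks of short hairpin RNAs for HCT116 knockdowns, and the labels were followed here. No array was repeated, and the differences therefore stand without a replicate check and without p-values. Both knockdowns are set against the same NC array, so an error on that array enters both comparisons. As RNA of whole cultures was measured, fewer cells with a transcript and less of it per cell cannot be told apart.

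Values are normalized log2 signals, that is, the log2 of the background-corrected fluorescence of a probe minus the 75th percentile of its array. A step of 1 is a 2-fold change. PRMT1 itself was measured at 6.01 on NC, 2.75 on KD1 and 1.45 on KD2, so the knockdown arrays held 10.4% and 4.24% of the NC signal. Of 8 epithelial markers, 6 were above background on all arrays, with KRT19 at 11.36, 11.06 and 11.15. VIL1 and CEACAM5, also markers of intestinal epithelium, were not well above background on any array. The arrays shared 1 slide and 1 scan. Between 40.8% and 42.5% of probes were well above background, and no spot was saturated. The extraction software marked 213 spots on KD1 as outliers, against 67 on NC and 87 on KD2.

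Complexes I and II pass electrons from NADH and succinate to ubiquinone, complex III passes them on to cytochrome c, and complex IV reduces oxygen. The proton gradient that complexes I, III and IV build drives ATP synthesis by complex V. A few core subunits of complexes I, III, IV and V are encoded by the mitochondrial DNA, whereas the rest, and all of complex II, are read from nuclear genes, translated in the cytosol and imported. Colon carcinoma cells in culture both respire and ferment glucose.

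Most respiratory chain transcripts were detected on every array. Of the 81 genes, 73 were well above background on all 3 arrays, and 74 could be compared, ATP5E being above background on the knockdown arrays alone. On NC the signals of the measured genes ran from −4.98 to 9.98 with a median of 6.89, against a median of −3.56 over all gene names. The 5 genes that were not well above background on any array were NDUFA4L2, UQCRBP1, COX6A2, COX7A1 and COX7B2. NDUFB7 and UQCR11 had no usable spot, because their only spot was marked on KD1. The brightest probes of ATP5E and UQCR10 were lost the same way, and both genes rest on another probe. A probe's brightness also depends on its own binding, so levels are compared between arrays and not between genes.

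**Figure D1:**
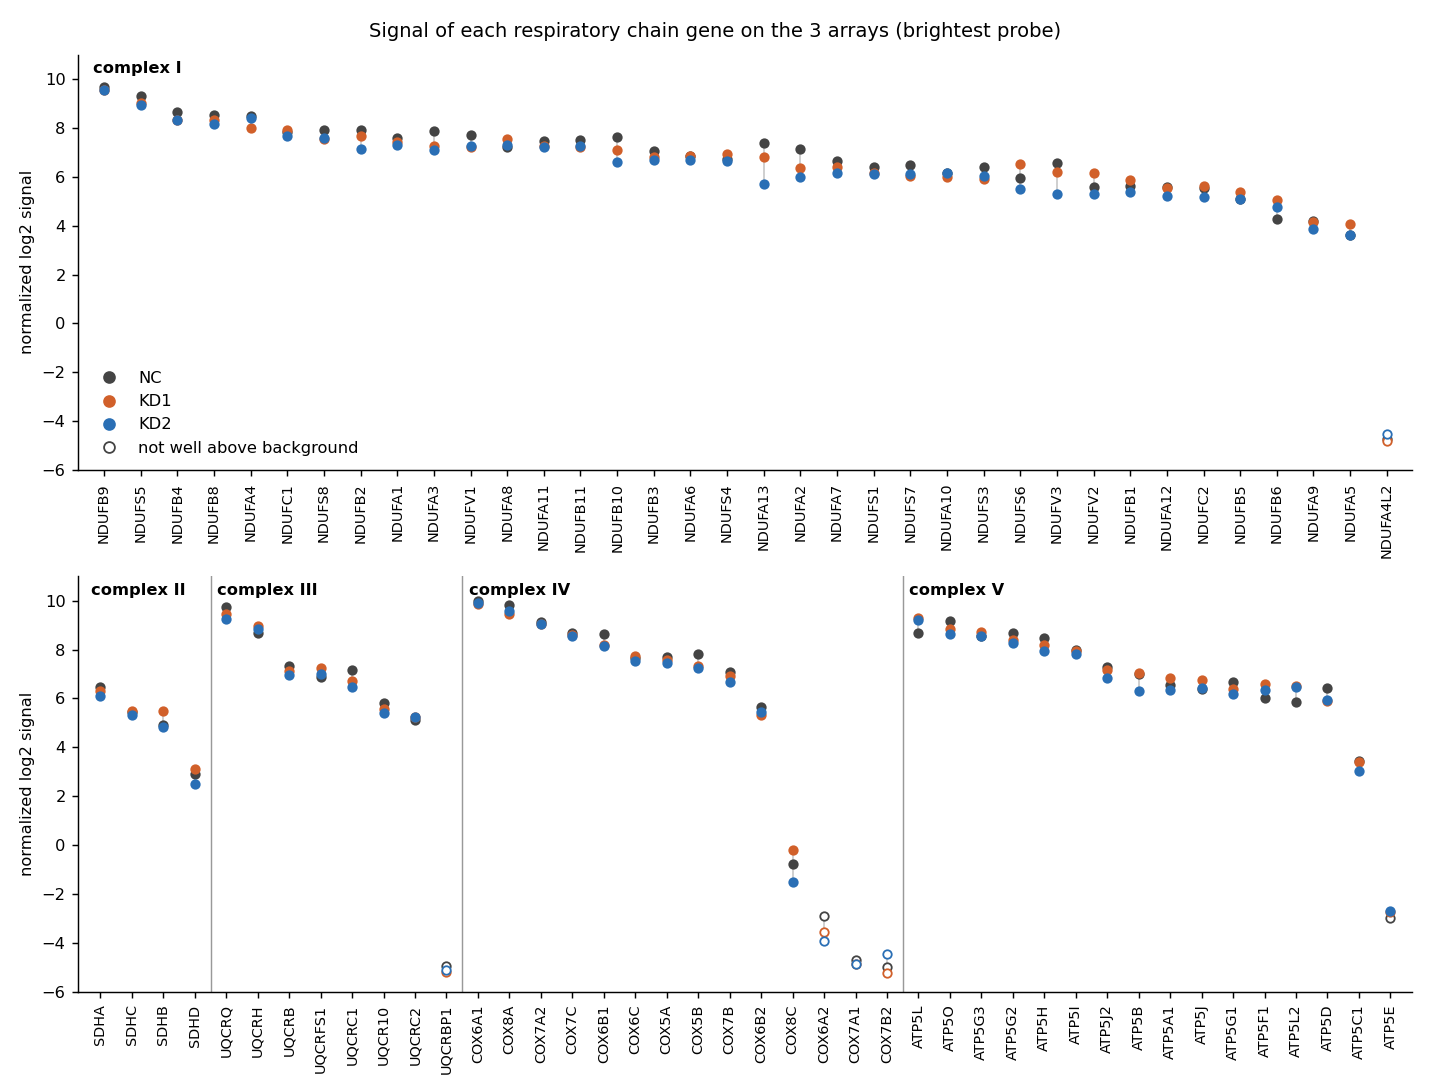
Normalized log2 signal (vertical axis) of the brightest usable probe of the respiratory chain genes on NC, KD1 and KD2, grouped by complex and drawn in order of mean signal. Open circles were not well above background. The 3 arrays lie close together for most genes, and NDUFA13 and COX8C are spread widest among the genes drawn that were above background.

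As a group these genes lay slightly below NC in KD2 under each way of processing but spike-in scaling. There 37 of 74 were below and the group was level with NC. In KD1 the median was above 0 under quantile normalization, spike-in scaling and the unscaled series matrix. It was nearly level with NC under normexp background correction (−0.01, 51.4% below, against 53.3% of all genes), cyclic loess (−0.02, 39 of 74 below) and median scaling (−0.03, 38 below). Under the other settings it was lower. In KD2, 59 of 74 genes were below NC (79.7%, against 54.7% of all genes compared) and the median change was −0.30 (all genes −0.05). In KD1, 47 of 74 were below NC (63.5%, against 53.6%), and the median was −0.13 (all genes −0.04). Under quantile normalization, spike-in scaling and the unscaled matrix the KD1 median was 0.01, 0.48 and 0.25. The KD2 median was −0.16, −0.01 and −0.22 there. Spike-in scaling moved the median of all genes to 0.57 in KD1 and 0.24 in KD2, the unscaled matrix moved it to 0.34 and 0.05, and median scaling moved it to 0.06 and −0.20. Under the reported, median, detected-probe and spike-in scalings, which each apply 1 factor per array, the genes lay 0.09 (KD1) and 0.24 (KD2) below the median of all genes above background, and under quantile normalization they lay 0.05 above it in KD1 and 0.13 below it in KD2.

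Few of them passed a 1.5-fold change. In KD1, 2 of 74 genes were lower by 1.5-fold (2.7%) where the share over all genes was 12.8%, and 5 were higher (6.76%, against 13.2%). In KD2, 9 were lower (12.2%, against 10.7%) and 2 were higher (2.7%, against 9.56%). Counted either way, 26.1% of all genes were past 1.5-fold in KD1 and 20.2% in KD2. Other scalings changed the KD1 split of lower and higher calls to 1 and 9 (median, quantile or cyclic loess), 6 and 3 (percentile over detected probes), 0 and 28 (spike-in), 0 and 19 (unscaled matrix) or 5 and 4 (matrix scaled to the 75th percentile). The KD2 split became 20 and 1 (median), 5 and 3 (quantile), 7 and 3 (cyclic loess) or 4 and 5 (spike-in). The shares over all genes moved too. In KD1 those lower and higher were 9.28% and 17% (median), 12.6% and 12.6% (quantile), 11% and 14.4% (cyclic loess), 16.4% and 11% (detected probes), 1.97% and 48.4% (spike-in), 3.58% and 32.4% (unscaled matrix) and 14.4% and 12.2% (scaled matrix). In KD2 they were 18.1% and 6.05% (median), 10.1% and nearly the same (quantile), 9.63% and 10.4% (cyclic loess) and 3.64% and 22.4% (spike-in). Scaling by 1 factor per array moves all changes alike, so it alters these counts and not the order of the genes.

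**Figure D2:**
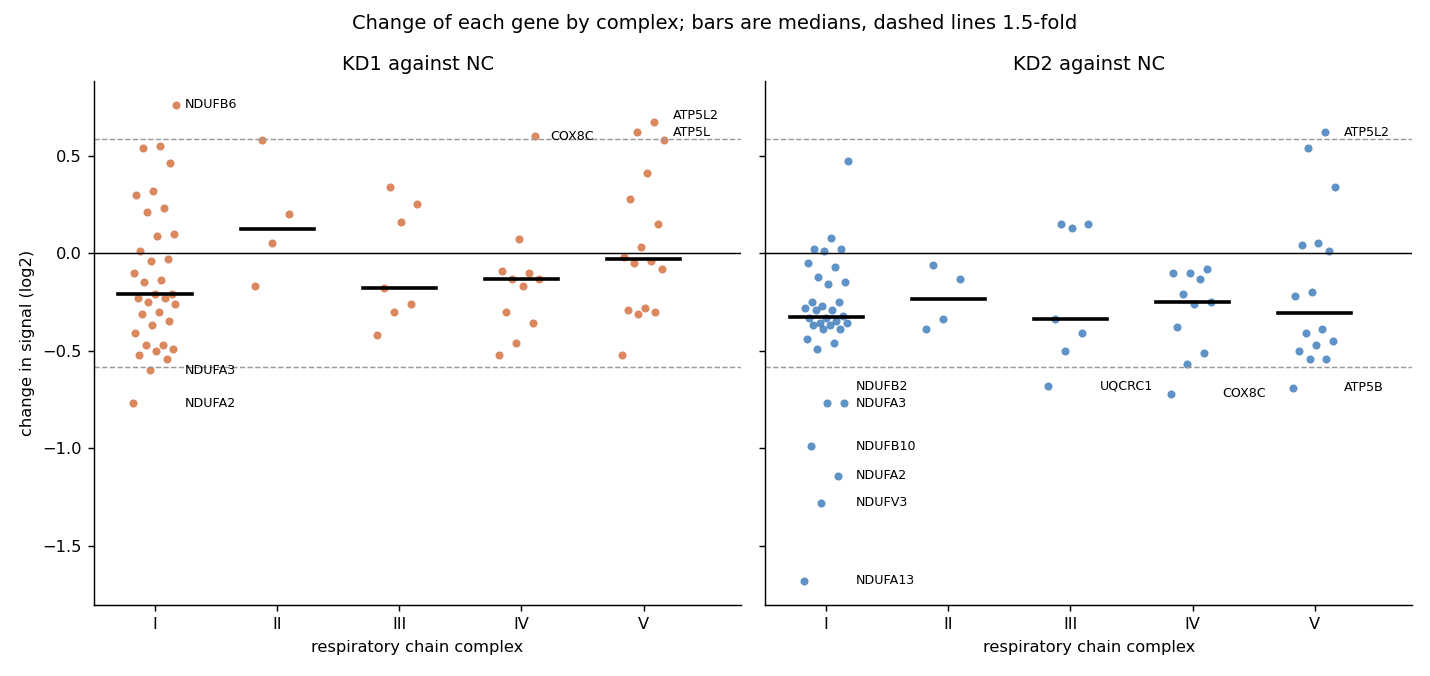
Change of the respiratory chain genes against NC in log2 units (vertical axis) for KD1 and KD2, by complex, with bars at the medians of all genes compared and dashed lines at 1.5-fold. Genes past the threshold are named. The 6 lower complex I genes of KD2 reach −1.68 at NDUFA13, and NDUFB6 (0.76) is the highest gene drawn in KD1.

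Complex I held the widest changes. Its 36 compared genes had medians of −0.32 in KD2, where 30 of them were below NC, and of −0.21 in KD1, which spike-in scaling (0.40) and the unscaled matrix (0.18) put above 0. In KD1, 2 were lower by 1.5-fold and 2 higher (5.56% each, against 12.8% and 13.2% of all genes). In KD2, 6 were lower and 1 higher (16.7% and 2.78%, against 10.7% and 9.56%). Probes behind the widest of the lower changes are shown because NDUFA13 and NDUFA2 each rest on a lone probe, whereas NDUFV3 has a second. All are 60 bases, written 5′ to 3′ as deposited, and positions are those of build hg19.
NDUFA13 (chr19:19638092-19638151): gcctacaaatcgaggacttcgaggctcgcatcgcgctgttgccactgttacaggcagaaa
NDUFA2 (chr5:140025149-140025208): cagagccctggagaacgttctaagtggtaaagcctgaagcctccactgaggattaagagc
NDUFV3, first probe (chr21:44328997-44329056): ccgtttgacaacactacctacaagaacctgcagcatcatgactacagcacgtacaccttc
NDUFV3, second probe (chr21:44303783-44303842): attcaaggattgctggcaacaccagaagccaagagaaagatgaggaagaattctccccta

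The core subunits carry the flavin and iron-sulfur centres and the ubiquinone site, and those given here stayed within the threshold. NDUFV1, which binds NADH, measured 7.71, 7.24 and 7.26 on NC, KD1 and KD2. NDUFV2, its partner in the flavoprotein part, measured 5.59, 6.14 and 5.31, with KD1 above NC and KD2 below. Its second probe moved alike (changes of 0.42 and −0.40 against 0.54 and −0.29). The iron-sulfur subunits NDUFS1, NDUFS3, NDUFS7 and NDUFS8 were below NC on both knockdown arrays, by changes from −0.52 to −0.23 in KD1 and from −0.39 to −0.28 in KD2.

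The accessory subunits, which surround the core and are needed for its assembly and stability, gave all the lower calls of complex I. NDUFA13, also known as GRIM-19, measured 7.38 on NC, 6.83 on KD1 and 5.69 on KD2. KD2 kept 31.2% of the NC signal and KD1 kept 68.7%, the change of −0.54 in KD1 being within the threshold. NDUFA2, a matrix-arm subunit, measured 7.13, 6.36 and 5.99, so it was lower by 1.71-fold and 2.2-fold. NDUFA3, in the membrane arm, measured 7.86, 7.26 and 7.08, with changes of −0.60 and −0.77. These NDUFA genes are ordered NC, KD1, KD2 from high to low. NDUFA3 in KD1 lay just past the threshold and passed it under 6 of 12 ways of processing, with a change of 0.01 under spike-in scaling.

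NDUFV3, an accessory subunit of the NADH-binding module, measured 6.55 on NC, 6.18 on KD1 and 5.28 on KD2. Its second probe gave 1.92, 1.45 and 1.08. Changes in KD2 were thus −1.28 and −0.85, and in KD1 −0.37 and −0.48, so both probes ordered the arrays alike. NDUFB10, a membrane-arm subunit, measured 7.61, 7.11 and 6.62, and KD2 kept 50.3% of the NC signal. NDUFB2, another membrane-arm subunit, measured 7.91, 7.67 and 7.14, a change of −0.77 in KD2 and −0.23 in KD1. NDUFB6 went the other way. Also in the membrane arm, it measured 4.29, 5.05 and 4.76 and was higher by 1.7-fold in KD1 and 1.39-fold in KD2. A second NDUFB6 probe measured 3.63, 4.61 and 4.10, with changes of 0.99 and 0.47. NDUFB9, the complex I gene with the strongest signal, measured 9.67, 9.57 and 9.55, and the arrays barely differed. NDUFA4, which later work places with complex IV, measured 8.47, 7.98 and 8.42, whereas its hypoxia-linked paralogue NDUFA4L2 was not well above background (−4.73, −4.81 and −4.52).

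Only the probes of NDUFS5, NDUFS6, UQCRC2 and COX7C are printed 10 times on each array. For NDUFS6, a zinc-binding accessory subunit, the spots had an SD of 0.026 on NC, 0.024 on KD1 and 0.028 on KD2. The means were 5.97, 6.52 and 5.51, with changes of 0.55 in KD1 and −0.46 in KD2, both far wider than the spread of spots and both within the 1.5-fold threshold. Spots of 1 array share their RNA, so this SD covers the printing and reading of spots and not the spread between cultures.

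Complex II, the only complex of the chain encoded in the nucleus alone, had no gene past 1.5-fold against NC. Over all genes 26.1% in KD1 and 20.2% in KD2 were past it either way, so no call among 4 genes says little. SDHA, the flavoprotein that oxidises succinate, measured 6.45 on NC, 6.29 on KD1 and 6.11 on KD2 by its brightest probe. Its dimmer probes, also above background, lay above NC in KD1, by 0.31, 0.11 and 0.12. SDHB, the iron-sulfur subunit, measured 4.90, 5.47 and 4.84, and its KD1 change of 0.58 fell just short of the threshold. The membrane anchors SDHC and SDHD measured 5.45, 5.50 and 5.33, and 2.90, 3.10 and 2.51. By the brightest probes KD2 was the lowest array for all 4 genes, with a median change of −0.23 (0.06 under spike-in scaling). In KD1 the median was 0.13, and 0.17 with a mean over probes. The 3 probes of SDHD differed by 0.66 in their KD1 change, more than any SDH change against NC by the brightest probe of a gene. The direction of SDHD in KD1 is therefore not settled by these probes, nor is that of SDHA. A dim SDHC probe, not well above background on KD2, gave a KD1 change of 0.67, against 0.05 by the brightest.

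The 7 compared genes of complex III had medians of −0.18 in KD1 and −0.34 in KD2, the former above 0 under quantile normalization (0.03), spike-in scaling (0.43), in the unscaled matrix (0.15) and over all probes of a gene (0.16). UQCRC1, a core protein of the matrix side, was the gene of this complex past the threshold (14.3% lower in KD2, against 10.7% of all genes). It measured 7.15 on NC, 6.73 on KD1 and 6.47 on KD2, a 1.61-fold lower signal in KD2. Its partner UQCRC2 measured 5.10, 5.26 and 5.25 over 10 spots an array, and the Rieske iron-sulfur protein UQCRFS1 measured 6.89, 7.23 and 7.02. These lay above NC on both knockdown arrays while UQCRC1 lay below. UQCRH, the hinge protein, measured 8.69, 8.95 and 8.85, and its second probe 8.21, 8.48 and 8.38. By their brightest usable probes the small subunits UQCRQ, UQCR10 and UQCRB were below NC in both. The changes were −0.30, −0.26 and −0.18 in KD1 and −0.50, −0.41 and −0.34 in KD2. A dimmer UQCR10 probe gave 0.16 in KD1 and −0.53 in KD2, so its direction in KD1 is not settled. A dim second probe of UQCRB gave 0.99 in KD1, 1.17 away from the first, the widest gap between probes of any member.

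In complex IV all 11 compared genes were below NC in KD2, where 54.7% of all genes were. Their changes ran from −0.72 to −0.08, with a median of −0.25. The number below NC was 4 under spike-in scaling (median 0.05), 6 under quantile normalization and 7 under cyclic loess. It was 8 in the unscaled matrix and 10 with a mean over probes. In KD1, 9 of 11 were below NC (81.8%, against 53.6% of all genes). The KD1 median was −0.13, which quantile normalization (0.04), spike-in scaling (0.48) and the unscaled matrix (0.26) put above 0. COX6A1, the widely expressed form of its subunit, measured 9.98, 9.85 and 9.90 on NC, KD1 and KD2. COX8A, likewise the common form, measured 9.83, 9.47 and 9.57, and COX7A2 9.12, 9.03 and 9.03. These are among the probes with the strongest signal, and their arrays differ little. COX5B, which lies on the matrix side, measured 7.83, 7.31 and 7.26, and its KD2 change of −0.57 fell just short of the threshold. COX6B1 measured 8.64, 8.18 and 8.13, and COX7B 7.07, 6.90 and 6.69. These differences from NC were all under 1.5-fold.

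Some subunits of complex IV also have tissue-restricted forms. The heart and skeletal muscle forms COX6A2 and COX7A1 were not well above background on any array, with measured signals of −2.89, −3.57 and −3.91, and −4.72, −4.85 and −4.87. The muscle markers MYH7 and MB were not above background either, whereas ACTA1 and CKM were, at −0.30 and −1.91 on NC. TNNT2 was above background on NC (−2.17) and KD2 (−1.94) but not on KD1. The summed signal of the 5 muscle markers lay between 0.30 and 0.81 on the 3 arrays. Of the forms known from testis, COX7B2 was not well above background on any array (−4.98, −5.25 and −4.46). COX6B2 measured 5.64, 5.34 and 5.43 by its brighter probe, but its other probe was not well above background on NC (−4.13), so these probes do not settle whether the gene was detected.

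COX8C, a testis form of COX8, was the complex IV gene past 1.5-fold, in opposite directions. That is 9.09% of those compared, against 13.2% of all genes higher in KD1 and 10.7% lower in KD2. COX8C measured −0.79 on NC, −0.19 on KD1 and −1.51 on KD2, higher by 1.52-fold in KD1 and lower by 1.64-fold in KD2. KD1 and KD2 differed by 1.32, the widest such difference of any member. Its signal was dim, and it rests on the probe shown here for that reason.
COX8C (chr14:93814553-93814612): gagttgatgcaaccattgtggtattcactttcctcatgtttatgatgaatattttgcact

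Complex V had medians of −0.31 in KD2 and −0.03 in KD1, the latter above 0 under 6 other settings, by up to 0.58 under spike-in scaling. The genes of the catalytic head mostly lay within the threshold. ATP5B (ATP5F1B in RefSeq), the catalytic beta subunit, measured 7.0 on NC, 7.03 on KD1 and 6.31 on KD2, a 1.62-fold lower signal in KD2 alone. ATP5A1, the alpha subunit, measured 6.56, 6.84 and 6.34, and the stalk subunits ATP5C1 and ATP5D had KD2 changes of −0.41 and −0.47. ATP5E, the epsilon subunit, was measured by a dim probe that was not well above background on NC, so no fold is given for it. The c subunit of the rotor is made from the paralogues ATP5G1, ATP5G2 and ATP5G3, whose mature peptide is the same. ATP5G1 measured 6.67, 6.37 and 6.17, ATP5G2 8.66, 8.38 and 8.27, and ATP5G3 8.54, 8.70 and 8.55. KD2 was the lowest array for ATP5G1 and ATP5G2, and ATP5G3 was level with NC there.

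ATP5L, subunit g of the membrane part, and its paralogue ATP5L2 were the complex V genes higher by 1.5-fold. The shares were 12.5% in KD1 and 6.25% in KD2, against 13.2% and 9.56% of all genes. ATP5L measured 8.66 on NC, 9.28 on KD1 and 9.19 on KD2, with changes of 0.62 and 0.54. ATP5L2 measured 5.85, 6.52 and 6.46, with changes of 0.67 and 0.62. The order of the arrays and the size of the changes were alike for the pair. Their probes share sequence, as the aligned pair shows. Of 41 overlapping bases 35 are equal (capitals), with a longest equal run of 14 bases, so signal of the brighter ATP5L transcript on the ATP5L2 probe cannot be told apart from ATP5L2 itself. A second ATP5L2 probe was not well above background on NC, at −4.96.
ATP5L (chr11:118279768-118279827): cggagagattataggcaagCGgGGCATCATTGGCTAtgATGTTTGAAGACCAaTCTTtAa
ATP5L2 (chr22:43035936-43035995): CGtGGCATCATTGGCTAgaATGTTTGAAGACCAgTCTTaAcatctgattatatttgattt

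Of the other stalk and membrane subunits, ATP5F1, the b subunit, measured 6.0, 6.58 and 6.35 on NC, KD1 and KD2. Its KD1 change of 0.58 fell just short of the 1.5-fold threshold. ATP5O, the OSCP subunit that joins the stalk to the head, was 9.16, 8.85 and 8.62. ATP5J was 6.37, 6.77 and 6.41, and ATP5J2 7.27, 7.18 and 6.82. ATP5H and ATP5I were below NC in both knockdowns (−0.29 and −0.05 in KD1, −0.54 and −0.20 in KD2).

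KD1 and KD2 could also be set against each other without NC. Here 9 of 74 genes were higher in KD1 by 1.5-fold (12.2%, against 9.84% of all genes) and 0 were lower (against 8.85%), where 18.7% of all genes passed either way. Among them were COX8C, NDUFA13, NDUFS6, NDUFV3, NDUFV2, ATP5B, SDHB and SDHD, with differences from 1.32 down to 0.59. The median of all 74 was 0.17, against 0.02 for all genes. A robust SD of the differences was 0.19, against 0.38 for the 17054 genes that all arrays measured above background. The same SD was 0.20 for the mitochondrial ribosomal proteins, 0.19 for the tricarboxylic acid cycle genes and 0.17 for the proteasome subunits, so the narrow spread was shared with these lists. It holds biological and technical differences together. Of these genes 19 passed under median scaling, 24 under spike-in scaling and 20 in the unscaled matrix, where the shares of all genes higher and lower in KD1 were 22% and 3.79%, 27% and 3.12%, and 24.5% and 3.46%.

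Where several probes of a gene were above background, their changes mostly lay close together, but not always on the same side of NC. In KD1, probes of NDUFA10, NDUFC2, SDHA, SDHC, SDHD, UQCR10 and UQCRB lay on both sides of NC. In KD2 this held for SDHA and SDHC. Among 17 such genes the range of changes between probes had a median of 0.22 in KD1 and 0.12 in KD2. NDUFA10, SDHD and UQCRB had ranges of 0.73, 0.66 and 1.17 in KD1, past the threshold of 0.585, and no gene had such a range in KD2. No gene had probes past 1.5-fold in opposite directions.

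The changes went with the base composition of the probe. Across the 74 genes, which share the same arrays and are not replicates, Spearman's rho between the change and the G and C content of the probe was −0.51 in KD1 and −0.44 in KD2, and −0.07 for KD1 against KD2. Over the 17054 genes above background the values were −0.38, −0.19 and −0.27. NDUFA13 (55% G and C), NDUFA2 (51.7%) and NDUFB10 (50%) were above the members' median of 43.3%, and NDUFB6 (38.3%) and ATP5L2 (35%) were below it. COX8C (35%) was low in G and C and lower in KD2 (−0.72), and ATP5L (43.3%) lay at the median. The part of base composition in these changes was not tested.

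**Figure D3:**
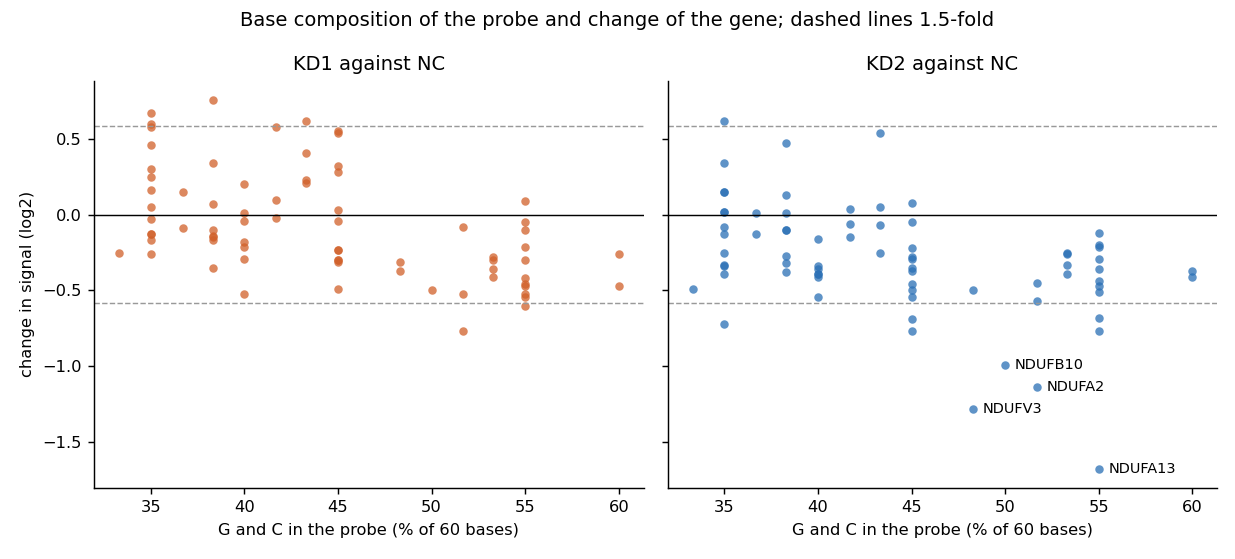
Change against NC in log2 units (vertical axis) and G and C content of the probe in percent (horizontal axis) for the respiratory chain genes in KD1 and KD2, with dashed lines at 1.5-fold. Probes rich in G and C lie lower in both panels, with NDUFA13 (55%) lowest in KD2.

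The genes of the mitochondrial DNA, which supply the other subunits of these complexes, were mostly below NC in both knockdowns, save in KD1 under spike-in scaling, where 2 of 10 were below (median 0.09). In KD2 spike-in scaling left 7 below (median −0.05) and quantile normalization 8 (median −0.12). In the reported scaling 9 of 10 were below NC in KD1 with a median of −0.53, and 9 in KD2 with a median of −0.34. ATP8 (8.91, 7.93 and 8.35), ND4L (10.14, 9.52 and 9.84) and ND5 (6.62, 6.03 and 6.16) were lower by 1.5-fold in KD1, and ND6 (1.15, 1.5 and 1.97) was higher in KD2. These genes were picked for naming by their values.

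Of 7 further nuclear-encoded subunits and carriers, CYCS, the electron carrier cytochrome c, was higher in both knockdowns (3.70, 4.91 and 4.50). COX7A2L, which helps to join complexes into supercomplexes, was higher by 1.5-fold in KD1 (0.67) and ATP5S was lower in KD2 (−0.59), both named for their values. COX4I1 had changes of −0.26 and −0.33, and CYC1, the cytochrome of complex III, −0.04 and −0.36. Among 43 assembly factors, 0 were lower (all genes 12.8%) and 5 higher in KD1 (11.6%, against 13.2%), with a median of 0.04. In KD2, 7 were lower (16.3%, against 10.7%) and 3 higher (6.98%, against 9.56%), with a median of −0.16. COX17, the copper chaperone of complex IV, was higher in both (5.53, 6.59 and 6.27), and so was COX15, needed for heme a (−0.26, 0.47 and 0.47). COA4, TMEM126B and UQCC1 (0.59 to 0.67 in KD1) and COX18 (in KD2, from below background on NC) made up the other higher calls and are named for their values. Those lower in KD2, named likewise, were TIMMDC1 (−0.99), NDUFAF3 (−0.94), UQCC2 (−0.85), SCO2 (−0.78), TTC19 (−0.77), ATPAF2 (−0.65) and SURF1 (−0.64).

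Regulators of mitochondrial gene expression showed few changes of this size. Of 15 compared, none passed 1.5-fold in KD1 and GABPB1 alone did in KD2 (0.64, named for its value). Over all genes 26.1% and 20.2% passed either way. NRF1, an activator of respiratory chain genes, measured −0.77, −0.33 and −0.46, and GABPA, the DNA-binding part of the factor NRF2, 0.06, 0.55 and 0.46. TFAM, which packages mitochondrial DNA, measured 5.96, 5.57 and 5.83, and the mitochondrial RNA polymerase POLRMT 5.83, 5.32 and 5.31. PPARGC1A was not well above background on any array.

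The tricarboxylic acid cycle and pyruvate dehydrogenase genes had medians of 0.10 in KD1 (−0.16 with a mean over probes) and −0.27 in KD2 over 17 genes. In KD1 IDH3G was lower (−0.63), and SUCLA2 (1.41), PDHX (0.99) and IDH3A (0.80) were among those higher. In KD2 DLD (−1.11), IDH3B (−0.72), MDH2 (−0.64) and FH (−0.60) were lower and none was higher. These genes are named for their values. The calls were 5.88% lower and 23.5% higher in KD1 (all genes 12.8% and 13.2%). In KD2 they were 23.5% and 0% (all genes 10.7% and 9.56%). The 77 mitochondrial ribosomal proteins had medians of 0.01 and −0.23. In KD1, 4 were lower and 5 higher (5.19% and 6.49%, against 12.8% and 13.2% of all genes). In KD2, 12 were lower and 0 higher (15.6% and 0%, against 10.7% and 9.56%). Lower in both were MRPS2 (8.07, 7.18 and 6.52), MRPL37 (6.77, 5.72 and 5.43), MRPL41 (8.04, 7.15 and 6.89) and MRPL55 (7.06, 6.28 and 6.33). The higher ones in KD1 were MRPL42 (1.09), MRPS30 (0.80), MRPL50 (0.74), MRPS23 (0.63) and MRPL15 (0.62), again named for their values. The 36 proteasome subunits, a bright set outside the mitochondrion, had medians of 0.09 and −0.09. Spike-in scaling put the KD2 medians of the assembly factors (0.14), TCA genes (0.03), mitochondrial ribosomal proteins (0.07) and proteasome subunits (0.20) above 0, and that of the proteasome subunits was also above 0 under quantile normalization (0.06), cyclic loess (0.05) and in the unscaled matrix (0.01). PSMB9, an interferon-induced subunit, was lower in both (1.80, 0.98 and 1.02).

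**Figure D4:**
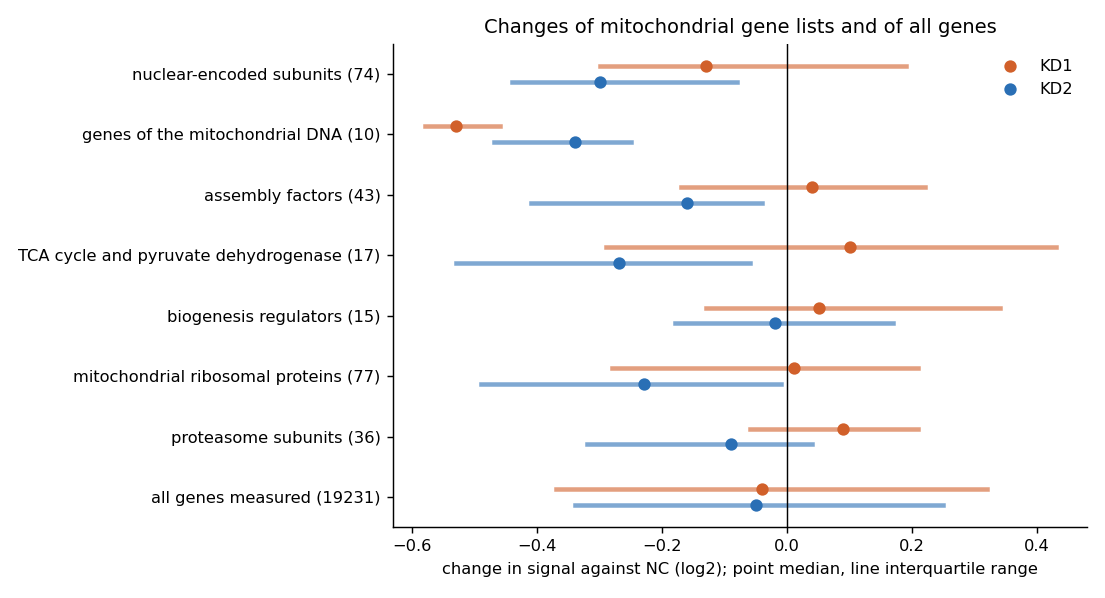
Median change against NC in log2 units (points) with the interquartile range (lines) for KD1 and KD2 in the nuclear-encoded subunits, related gene lists and all genes compared, with the number of genes compared in KD1 in brackets (for all genes in KD2 it was 19421). In KD2 the medians of the nuclear-encoded subunits (−0.30), the mitochondrial ribosomal proteins (−0.23) and the TCA cycle genes (−0.27) lie below that of all genes (−0.05).

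Short sequence motifs were looked for in the promoters that RefSeq lists (GRCh38.p14, from 250 bases before to 50 bases after the start of transcription), which cover 65 of the 81 genes. NRF1, GABP of the ETS family and YY1 are factors known from promoters of this kind. The NRF1 core GCATGCGC, on either strand, was in 13 of 65 promoters (20%, against 3.27% of all 27303 promoters and 4.26% of 15841 promoters of protein-coding genes). The ETS core CCGGAAG was in 18 (27.7%, against 10.7% and 14.2%) and the YY1 core AAGATGGC in 11 (16.9%, against 3.03% and 3.91%). In 10 of the 11 the YY1 match lay only over or after the start of transcription. This held for 1 of 13 promoters with the NRF1 core and 2 of 18 with the ETS core. TATAAA was in 10.8%, between the 12% of all promoters and the 9.63% of protein-coding ones. At least 1 of the first 3 was in 49.2% of these promoters and in 15.6% of all. Because the NRF1 core is nearly the same on both strands, 1 site can match both ways. Windows of COX5B and NDUFA13 show what such matches look like, with the match in capitals and 10 bases or fewer to each side.
COX5B, NRF1 core (chr2:97645916-97645943): gcagagctggGCATGCGCaatttccgcc
COX5B, ETS core (chr2:97646015-97646041): aagcccgcccCCGGAAGtccctcctgt
NDUFA13, ETS core (chr19:19516205-19516224): ccgcccgggaCCGGAAGtgt

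Among the 60 compared genes with a listed promoter, the median change of the 13 with the NRF1 core was −0.04 (KD1) and −0.32 (KD2), and that of the 47 without it −0.21 and −0.33. With and without the ETS core the medians were −0.18 and −0.16 in KD1 and −0.28 and −0.33 in KD2. With and without the YY1 core they were −0.03 and −0.17 in KD1 and −0.33 and −0.32 in KD2. A match is a run of letters in a window and not a measured binding site.

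Across the ways of processing the values, 12 settings gave a change for each gene. Past the threshold in all 12 were NDUFB6 in KD1, and NDUFA13, NDUFV3, NDUFB10 and NDUFA2 in KD2. ATP5L in KD1 was past it in 11 settings. COX8C was past it in 8 settings in KD1 and in 10 in KD2, and ATP5B and UQCRC1 in 9 in KD2.

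**Figure D5:**
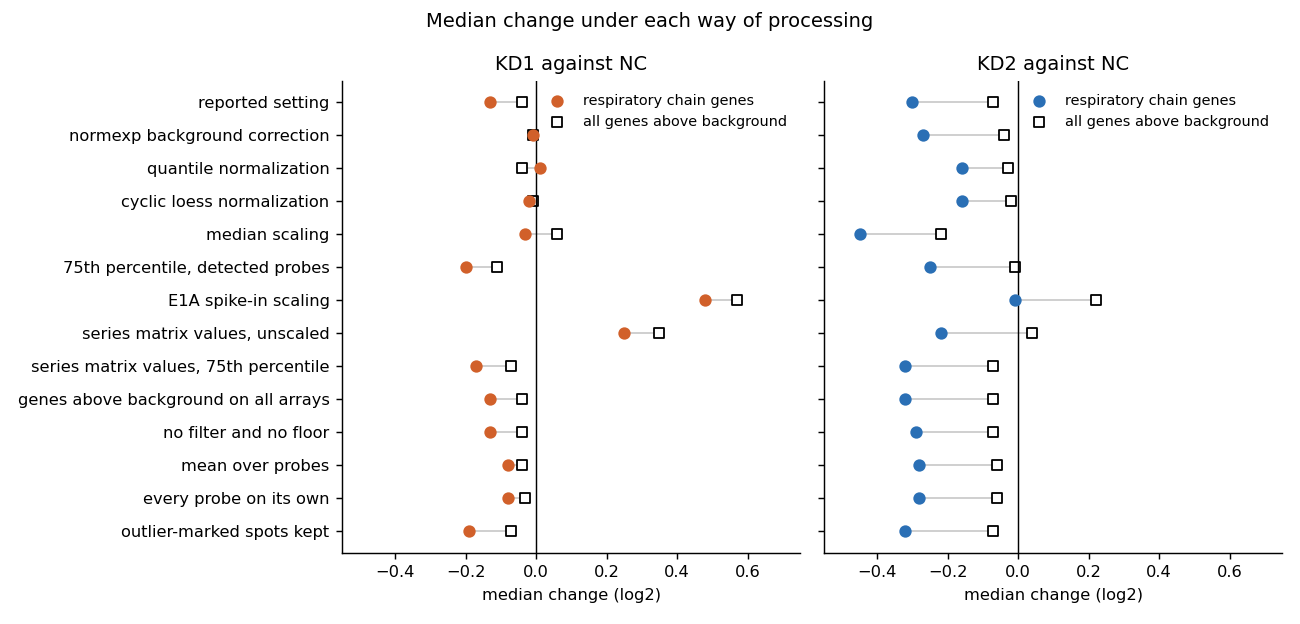
Median change against NC in log2 units (horizontal axis) of the respiratory chain genes (filled circles) and of all genes above background (open squares) for KD1 and KD2 under 14 ways of processing (vertical axis). The circles move with the squares under scalings by 1 factor, and in KD2 lie left of the squares in every row.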

How the data were processed

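RNA from 3 HCT116 cultures (NC, KD1, KD2) was measured on 1-colour Agilent arrays. Knockdowns of SMARCA4, also part of the study, were not used here. The authors deposited scanner output in which Agilent Feature Extraction 10.7.1.1 had turned each spot into a background-corrected fluorescence intensity, unscaled between arrays per the file headers. The deposited series matrix holds unscaled intensity too and served as an alternative. Positions refer to hg19.

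Control spots and spots marked as outliers were dropped, which left 130 probes without a usable spot on at least 1 array. Spots of a probe were averaged as log2 values, and the 75th percentile of each array was subtracted. The brightest probe stood for a gene, and 1507 probes had no gene name. After these steps 41749 gene names remained. A gene entered a comparison if at least 1 of its arrays had the probe well above background, and a value not above background was raised to the lowest normalized signal that was. The threshold was the 1.5-fold of the study's methods, whose test needs replicates and was not run. The number of arrays limits the precision. Counting was tested on simulated data.

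Members, gene lists and alternatives were chosen with earlier results of these data known. Some items are not reported here by name and are not drawn, but counts and medians include them. Any member could be named. Values on all arrays were set for the other members past 1.5-fold, the SDH genes, paralogue sets and the 3 members of highest mean signal, and further members, with core and small subunits among them, were picked by role with values in view. Named besides were, of other lists, up to 4 genes past 1.5-fold alike in both knockdowns. Others are named for their values where stated. In RefSeq (GRCh38.p14) 80 of 81 names were found, 63 as current symbols and 17 as synonyms. Normexp, quantile and cyclic loess alternatives used limma 3.58.1 in R 4.3.3, and the rest Python 3.11.15 with pandas 2.3.3 and scipy 1.17.1.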

Additional observations from a re-analysis of the deposited data

Results flagged for a closer look

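COX8C was the gene that moved past 1.5-fold in opposite directions, with a change of 0.60 in KD1 and of −0.72 in KD2, and the knockdown arrays differed by 1.32. With 1 array a group this difference was not tested. The signals were −0.79 on NC, −0.19 on KD1 and −1.51 on KD2, all from the same dim probe.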

How the results depend on the processing

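No paired analysis was possible because each group has 1 array, and for the same reason no array could be left out. Counts are of members lower and higher in KD1, then lower and higher in KD2, then past 1.5-fold between the knockdowns, and the reported ones are 2, 5, 9, 2 and 9, with medians of −0.13 and −0.30. Normexp gave 1 and 8 in KD1 with a median of −0.01. Quantile normalization gave 1 and 9, with 5 lower in KD2, and medians of 0.01 and −0.16. Cyclic loess gave 1 and 9 in KD1 and medians of −0.02 and −0.16. Median scaling gave 1, 9, 20, 1 and 19, with medians of −0.03 and −0.45. The percentile over detected probes gave 6 and 3 in KD1, with medians of −0.20 and −0.25. Spike-in scaling gave 0, 28, 4, 5 and 24, with medians of 0.48 and −0.01, and turned NDUFA3 in KD1 to 0.01. The unscaled series matrix gave 0 and 19 in KD1 and 20 between knockdowns, with medians of 0.25 and −0.22, and once scaled it gave 5 lower in KD1. Keeping marked spots gave 5 lower in KD1 and a median of −0.19. A mean over probes gave 1 higher in KD2, and every probe on its own gave 9 higher in KD1 and 14 between knockdowns. A threshold of 2-fold left 0, 1, 3, 1 and 3. The mean in place of the median was −0.04 in KD1. The cause of these moves was not tested, except that the 2-fold threshold is stricter by construction. In all, 51 of 98 such summaries stayed near the reported value, 44 moved and 3 changed sign, and of 312 changes of single members 284 stayed, 27 moved and 1 changed sign. Dim probes such as those of COX8C and ATP5E are the ones that signal over background limits.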
